A study of Mus musculus with 284 samples.

Results

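Of 284 tumour propagating cells sorted from skin tumours of mice, 62 are described here. They were selected on measured values: a high score of wound keratin genes within their mouse, without a high score of suprabasal keratinocyte genes. Each cell had a wound score, the mean log2(CPM + 1) of Krt6a, Krt6b, Krt16, Krt17, Sprr1a and Sprr1b (CPM, counts scaled to a common total per cell). Each cell also had a suprabasal score, the same mean over Krt1, Krt10, Krtdap, Sbsn, Lgals7, Ly6d and Calm4. Within each mouse a cell was chosen if it lay in the top 40% by wound score and outside the top 25% by suprabasal score; the chosen cells are called wound-only cells. They numbered 16 of 69 in mouse WT1 (23.2%), 19 of 88 in mouse WT2 (21.6%), 15 of 73 in mouse KO1 (20.5%) and 12 of 54 in mouse KO3 (22.2%). WT1 and WT2 were wild type, and KO1 and KO3 were labelled Sirt6-/-. Lists of 4 values follow that order of mice throughout. The remaining 222 cells fell into 52 past both limits (double-high cells), 35, 47, 39 and 28 cells by mouse past neither limit (double-low cells) and 21 past the suprabasal limit alone. The percentages in the rule hold these shares close together in all mice, so the shares are no measurement.

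All mice were C57BL/6 and carried a Keratin14-Cre transgene with the ROSA26-LSL-eYFP reporter, in which Cre expressed in Krt14-positive cells switches on a yellow fluorescent protein. Every mouse received the carcinogen DMBA once at 8 weeks of age and then the phorbol ester TPA for more than 20 weeks. Tumour cells were sorted as YFP-positive, CD34-positive and CD49f-high (CD49f is the integrin encoded by Itga6), so fluorescence, Cd34 and Itga6 took part in the choice of all 284 cells. The mice were 2 of each genotype, single cells were prepared as full-length Smart-seq2 libraries, and the mouse is the replicate. Plate and genotype cannot be told apart: the wound-only cells of KO1 came from plate 1 and those of KO3 from plate 2, those of WT1 from plate 3, and of WT2 18 came from plate 4 and 1 from plate 3.

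Krt6a, Krt6b, Krt16 and Krt17 encode the wound keratins, intermediate filament proteins that epidermis makes at wound edges and in hyperplastic or tumour epithelium; Krt17 is also made in the hair follicle. Sprr1a and Sprr1b encode small proline-rich precursors of the cornified envelope that are induced with them. In resting epidermis, basal keratinocytes make Krt5, Krt14 and integrins, and cells that leave the basement membrane switch to Krt1 and Krt10. TPA activates protein kinase C and, downstream of it, AP-1 factors, whose classic site is the TPA response element.

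The promoters of the small proline-rich pair are shown because they hold matches to TGANTCA, a looser form of that element. A pair of suprabasal promoters is set beside them. Of the 6 wound genes, Sprr1a and Sprr1b have an entry in the RefSeq promoter table (GRCm38.p6), and of the 7 suprabasal genes 5 do. The motif searched was TGANTCA, which reads the same on both strands, in the 250 bases before each gene's RefSeq start. It occurs in 6.75% of 32851 promoters of that length. Sprr1a holds 2 matches and Sprr1b holds 1. Among the suprabasal genes Krtdap and Sbsn hold 1 each, and Krt10, Lgals7 and Calm4 hold 0. The matches in Sprr1b and Sbsn read TGAATCA and not the TGAGTCA of Sprr1a and Krtdap, so a match is not in itself the classic element. The following runs are 5′ to 3′ on the gene's strand, with the motif in capitals, at chr3:92485961-92486027 (minus), chr3:92438854-92438920 (minus), chr7:30787794-30787860 (plus) and chr7:30751322-30751388 (plus).
Sprr1a: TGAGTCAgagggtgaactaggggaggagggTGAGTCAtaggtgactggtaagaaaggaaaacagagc
Sprr1b: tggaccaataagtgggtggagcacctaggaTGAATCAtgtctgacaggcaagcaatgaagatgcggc
Krtdap: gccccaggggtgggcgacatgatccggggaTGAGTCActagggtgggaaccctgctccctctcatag
Sbsn: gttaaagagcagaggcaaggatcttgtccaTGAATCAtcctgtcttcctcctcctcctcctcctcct
The same letters thus stand in promoters of both scores, and a match is a description of these windows only.

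Cells held 523999 to 1684464 counts (median 1130412) and 3235 to 8470 detected genes. The median totals of wound-only cells, 1142121.5, 1134730, 1068291 and 1172759.5 counts, differed from those of the other cells by -20387 ± 83320 (SD, n = 4 mice; exact two-sided sign-flip permutation p = 0.625). Wound-only cells had more detected genes in every mouse: the medians were 7043 against 6764 in WT1, 6129 against 5584 in WT2, 6733 against 6153 in KO1 and 7054.5 against 6590.5 in KO3. The mean difference was 467 ± 134.4 genes (SD, n = 4 mice), and the exact two-sided sign-flip permutation test gave the smallest p that 4 mice allow. The difference was 506.1 genes after every cell was thinned to 500000 counts. The mitochondrial share of counts was lower in 4 of 4 mice, with medians of 1.15% against 1.31%, 1.44% against 1.62%, 1.83% against 1.95% and 1.34% against 1.48%, a mean difference of -0.148 ± 0.0253 percentage points (SD, n = 4 mice). The part of detected genes and mitochondrial share in the gene differences below was tested only for detected genes, as a covariate in limma. Double-high cells had still more detected genes in WT1 and WT2 (medians 7332 and 6639.5) and fewer in KO1 and KO3 (6582 and 6491.5).

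The scores themselves chose the cells and are given as a description. The wound score of wound-only cells had medians of 8.26, 6.29, 7.69 and 10.05, lowest values of 7.38, 5.77, 6.83 and 8.74 and highest values of 12.83, 7.6, 10.54 and 12.68. WT2 thus stood apart: its highest wound-only cell lay under the median of every other mouse. Cells just inside the wound limit lay at 7.38, 5.77, 6.83 and 8.74, and cells just outside it at 7.26, 5.76, 6.81 and 8.74. Within 0.25 of that limit lay 7, 5, 10 and 3 cells. For the suprabasal limit the nearest cells under and past it lay at 6.45 and 6.67, 6.39 and 6.54, 7.33 and 7.36, and 8.33 and 8.36. Across the 69, 88, 73 and 54 cells of a mouse the scores had a Pearson r of 0.58, 0.57, 0.68 and 0.66, a description over cells that share their total count as the denominator.

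**Figure D1:**
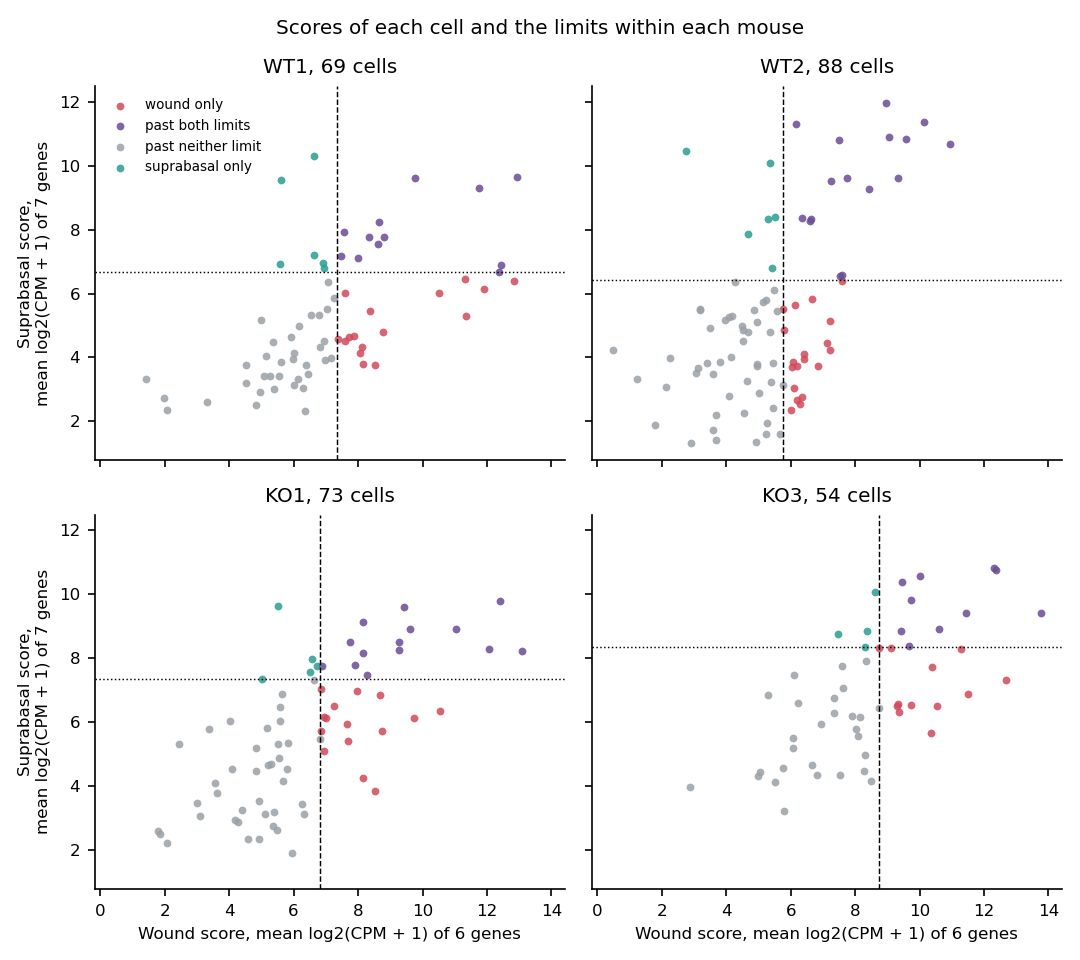
Wound score (horizontal axis) against suprabasal score (vertical axis), both mean log2(CPM + 1), for every cell of each mouse in a panel of its own; point colours mark wound-only, double-high, double-low and suprabasal-only cells, and lines mark the limits. The limits lie lowest in WT2 (wound 5.76) and highest in KO3 (wound 8.74).

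The summed levels of the 4 wound keratins in the chosen cells were lowest in WT2, and Krt16 was nearly as low in KO1. Summed over wound-only cells, Krt6a reached 8520, 1450, 5060 and 9110 CPM, and the other cells of those mice held 3030, 1540, 2610 and 4830 CPM. In WT2 alone the other cells were as high as the wound-only cells, and its double-high cells held 4050 CPM. Krt16 stood at 7370, 951, 1140 and 8650 CPM in wound-only cells and at 8400, 2920, 8500 and 13300 CPM in double-high cells. Krt17 was the exception among the 4 keratins: its mean log2(CPM + 1) was 12.87, 10.05, 12.24 and 12.44 in wound-only cells, above the double-high cells in all 4 mice (12.82, 9.71, 10.94 and 11.31). On summed CPM that order held in KO1 and KO3 (6110 against 3070 and 6010 against 3300) and turned in WT1 and WT2 (9250 against 9380 and 1740 against 3600). In WT2 Krt17 differed most of the 6 wound genes from double-low cells, with a mean log2(CPM + 1) of 10.05 against 5.75.

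The small proline-rich genes were patchy. Sprr1a had a count in 4 of 16, 1 of 19, 1 of 15 and 6 of 12 wound-only cells. Sprr1b had a count in 11, 6, 9 and 12 of them, with summed levels of 200 CPM, 11.7 CPM, 87 CPM and 716 CPM, and in 5, 0, 5 and 19 double-low cells. Most double-low cells outside KO3 thus lacked a count of both genes. Reads do not separate the keratins fully: of the 50-base stretches of Krt6a and Krt6b transcripts 45.5% and 50.1% also occur in another gene, mostly in each other, and of Krt16 stretches 37.6% do, including 12.4% in Krt14. The figure for Krt17 is 3.99%, and for Sprr1a and Sprr1b 0%.

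**Figure D2:**
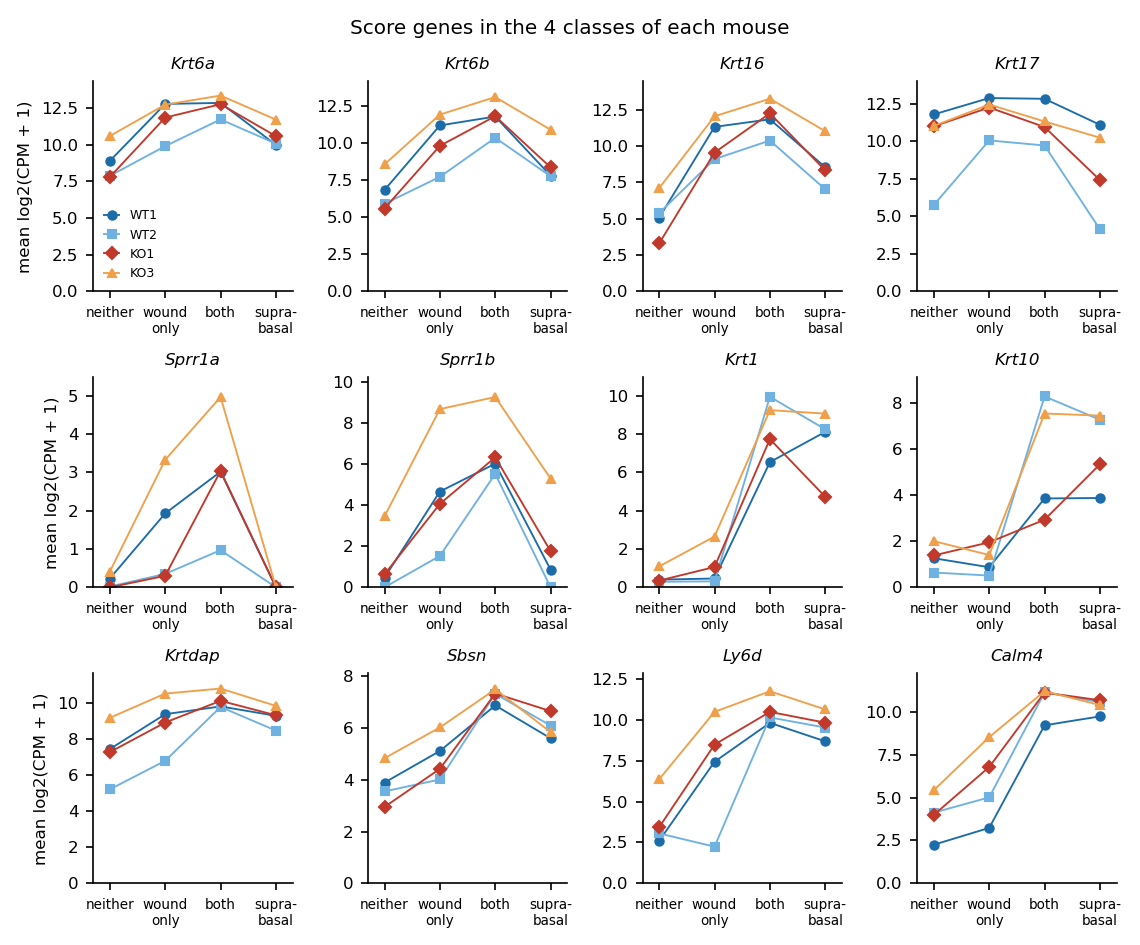
Mean log2(CPM + 1) of the genes of both scores except Lgals7 by cell class, with a point for each mouse and lines joining a mouse's classes. The genes chose the cells, so the panels describe and test nothing. Krt17 is highest in wound-only cells, whereas Krt1, Krt10 and Calm4 are highest in cells past the suprabasal limit.

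The name "without suprabasal programme" held for Krt1 and Krt10 in WT1 and WT2, in part in KO1 and KO3, and not for the whole list. Krt1, the first suprabasal keratin, had a count in 1, 1, 3 and 5 wound-only cells, and Krt10 in 5, 3, 7 and 5. In KO1 Krt10 was as high in wound-only as in other cells (31.9 against 29.1 CPM, a count in 46.7% against 46.6% of cells). In KO3 Krt1 stood at 87 CPM in wound-only cells against 18.8 CPM in double-low cells. Double-high cells held Krt1 at 626, 4500, 715 and 1180 CPM, against 12.1, 2.64, 9.28 and 87 CPM in wound-only cells. Krtdap, a secreted protein of differentiating keratinocytes, was present in all but 1 of the 62 wound-only cells and exceeded the double-low cells in 4 of 4 mice by 1.93, 1.58, 1.64 and 1.34 on the mean log2(CPM + 1) scale. Ly6d, a surface protein of differentiating keratinocytes, stood at 7.43, 8.48 and 10.48 in wound-only cells of WT1, KO1 and KO3, but at 2.24 in WT2, where the double-low cells held 3.05. The median suprabasal score of wound-only cells, 4.73, 3.96, 6.13 and 6.73, lay above that of double-low cells (3.77, 3.82, 4.11 and 5.54) and below that of double-high cells (7.77, 9.6, 8.39 and 9.61). These cells are therefore named by the rule, as cells of high wound score for their mouse. Their suprabasal score was intermediate in WT1, KO1 and KO3. In WT2 it was nearly that of double-low cells (3.96 against 3.82), and summed Krt6a and Krt6b did not exceed those of the other cells. In KO1 summed Krt6b and Krt16 did not exceed those of the other cells either.

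Other genes differ between such classes wherever they vary together with the 13 score genes in the same libraries, so the tests that follow ask only whether a difference repeats over mice. Counts were summed by class and mouse and compared with edgeR's quasi-likelihood test with the mouse as a block, and p-values were adjusted by Benjamini-Hochberg over all genes tested. Of 16214 genes tested between wound-only and all other cells, 0 (0%) passed an adjusted p of 0.05 with edgeR, 1003 had an unadjusted p under 0.05, and the adjusted p was 0.722 or higher for each gene named. DESeq2 called 319 genes (2.23% of 14326). limma, run on the mean log2(CPM + 1) of the 8462 genes detected in 20% or more of each mouse's cells, called 0, with 1045 at an unadjusted p under 0.05, and without WT2 it called 8. Genes in this comparison are accordingly given as values. On the mean log2(CPM + 1) scale 15.8% of these genes lay higher and 4.02% lay lower in 4 of 4 mice, and the median over all genes was 0.16, whereas edgeR's median was -0.18. Differences near those medians have no settled direction. The edgeR medians, here and for the gene lists below, also cover genes detected in fewer cells. The medians on both scales can thus rest on different genes.

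Areg, Hbegf and Epgn, ligand genes of the EGF receptor, lay higher in wound-only cells than in the other cells of their mouse. The pathway of this receptor drives keratinocyte migration and proliferation at wound edges. Receptor genes and Errfi1 stand in the same list as the ligands. Of its 8 genes that could be compared, 4 lay higher in 4 of 4 mice and 0 lower. Among all genes 15.8% lay higher and 4.02% lower. The list had a median difference of 0.64 on the mean log2(CPM + 1) scale and 0.29 in edgeR. Against double-high cells 0 of the 8 genes lay higher and 1 lower, with medians of -0.3 and 0.07, where 9.44% of all genes lay higher and 8.82% lower. Areg (amphiregulin, chr5:91139599-91148432, GRCm38) had mean log2(CPM + 1) values of 8.27, 3.86, 7.51 and 8.01 in the wound-only cells, against 5.45, 2.46, 5.25 and 7.42 in the other cells. The difference was largest in WT1, and in KO3 the summed levels were nearly equal at 439 against 431 CPM. Hbegf, encoding heparin-binding EGF-like growth factor, gave differences of 1.15, 1.81, 1.63 and 0.45. Epgn (epigen) gave 0.90, 1.12, 1.56 and 2.19. The edgeR log2 differences were 0.86 (SE 0.23) for Areg and 0.66 (SE 0.17) for Hbegf, each with an adjusted p of 0.722. The receptor gene Egfr did not follow its ligands, with differences of -0.82, -1.21, 0.03 and 0.89.

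Odc1 and Ccnd1 stood out after their values were seen, since they were higher in wound-only cells than in both neighbouring classes. Odc1 (chr12:17544794-17551505) encodes ornithine decarboxylase, the first enzyme of polyamine synthesis and a classic TPA-induced gene of mouse skin. Its mean log2(CPM + 1) was 6.71, 6.68, 5.33 and 6.04 in wound-only cells. Double-high cells stood at 5.25, 3.96, 3.22 and 5.2, and double-low cells at 3.36, 4.74, 2.86 and 5.33. The wound-only cells were the highest of these classes in 4 of 4 mice, and the edgeR log2 difference from all other cells was 1.43 (SE 0.22, adjusted p = 0.722). With the suprabasal score as a covariate in limma, the Odc1 difference from double-high cells was -0.05. Ccnd1, encoding the G1 cyclin D1, showed mean log2(CPM + 1) values of 8.1, 7.43, 8.24 and 7.42 in wound-only cells, 6.55, 6.17, 7.15 and 6.37 in double-high cells and 6.65, 5.55, 6.28 and 6.89 in double-low cells. Ccnd1 was thus higher than in either class in 4 of 4 mice, and the share of all genes with that order was not counted. The few cells past the suprabasal limit alone held 8.83 in WT1. Plaur, the urokinase receptor of migrating keratinocytes, differed from other cells by 2.66, 1.33, 2.15 and 0.40, although the summed level in KO3 was 50.3 against 56.5 CPM. The 250 bases before the RefSeq starts of Areg, Odc1, Klk10, Fgfbp1, Tgfbi and Col17a1 hold 0 matches to TGANTCA, a choice of genes made after their values were seen; for Odc1, Klk10 and Col17a1 these windows reach into the gene as printed here from GENCODE.

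**Figure D3:**
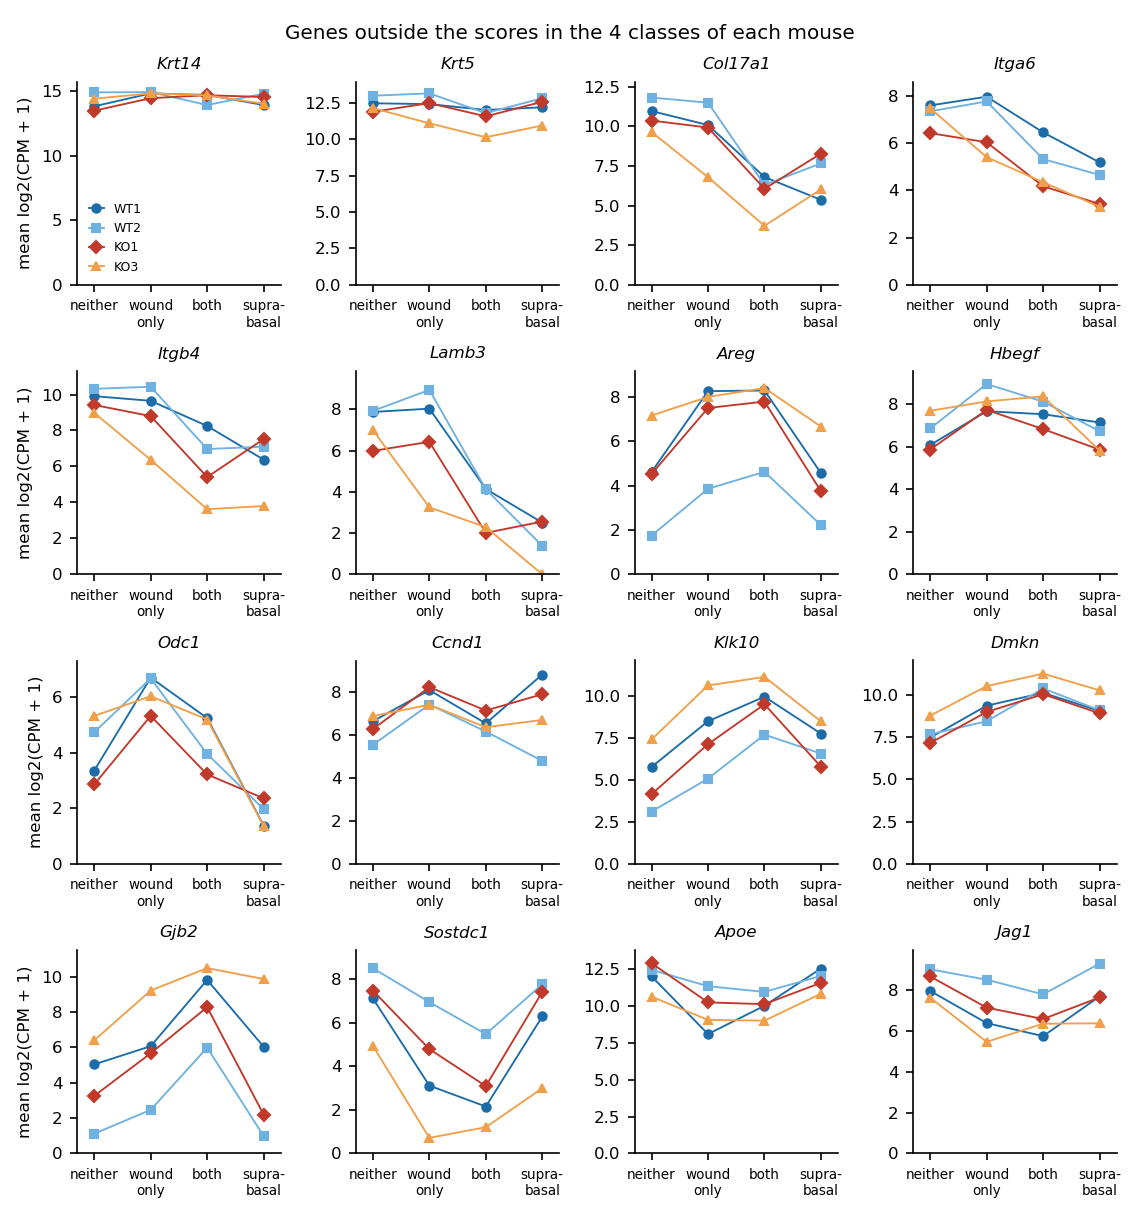
Mean log2(CPM + 1) by cell class for genes outside both scores, with a point for each mouse and lines joining a mouse's classes. Odc1 and Ccnd1 lie higher in wound-only cells than in double-low and double-high cells, Klk10 lies between those classes, and Col17a1 is lower in double-high than in wound-only cells of every mouse.

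Genes of antigen presentation and the genes Apoe, Sostdc1 and Jag1 lay lower in wound-only cells than in the other cells of their mouse. Of 8 interferon and MHC class I genes, 0 lay higher and 4 lower in 4 of 4 mice (median -0.63 on the mean log2(CPM + 1) scale, -0.99 in edgeR over 19 genes of the list). Among all genes 15.8% lay higher and 4.02% lower. Against double-high cells 0 of these 8 genes lay higher and 1 lower, with medians of 0.07 and 0.41. The shares of all genes there were 9.44% higher and 8.82% lower, so 1 gene is no result about the list. Summed over the 24 listed genes with counts, the level was 1549, 3429, 2039 and 1648 CPM in wound-only cells. Double-high cells held less in every mouse (1264, 2289, 1854 and 1510 CPM). Double-low cells held more (2688, 4217, 3342 and 2154 CPM). H2-K1, an MHC class I heavy chain, stood at 215, 514, 304 and 192 CPM in wound-only cells and at 382, 580, 463 and 285 CPM in other cells. Its light chain gene B2m gave differences of -0.38, -0.40, -1.18 and -0.65 on the mean log2(CPM + 1) scale. Apoe, encoding apolipoprotein E, stood at 831, 3510, 3150 and 1160 CPM against 5340, 5270, 8010 and 3670 CPM. Sostdc1, a secreted BMP and WNT antagonist of the hair follicle, had mean log2(CPM + 1) values of 3.11, 6.95, 4.79 and 0.71 against 5.9, 7.74, 6.41 and 3.86. Apoe and Sostdc1 were singled out after their values were seen, and both lay lower in 4 of 4 mice. Jag1, a Notch ligand, gave an edgeR log2 difference of -0.96 (SE 0.25).

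The proliferation lists gave no common direction. Of 26 S phase genes 0 lay higher and 0 lower in 4 of 4 mice. Summed over the 30 listed genes with counts, the S phase level was 3240, 2931, 3169 and 2911 CPM in wound-only cells and 4558, 2315, 3663 and 4809 CPM in other cells, so it lay lower in WT1, KO1 and KO3 and higher in WT2. Of 20 G2/M genes 4 lay higher and 1 lower in 4 of 4 mice, close to the 15.8% and 4.02% of all genes. The G2/M median was 0.40 on the mean log2(CPM + 1) scale and -0.21 in edgeR, which also covers listed genes outside these 20. Mki67, the Ki-67 proliferation antigen, had a count in 9 of 16, 9 of 19, 7 of 15 and 10 of 12 wound-only cells. Its mean log2(CPM + 1) was 3.59, 2.47, 3.17 and 5.91 against 3.86, 2.77, 3.34 and 6.04 in other cells, and its edgeR log2 difference was -0.76 (SE 0.13, adjusted p = 0.722).

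Against double-low cells, which lie under the same suprabasal limit, the wound-only cells held more RNA of barrier genes. edgeR called 0 of 15730 genes (0%), with 929 at an unadjusted p under 0.05, and DESeq2 called 605 (3.85%). limma called 1.29% of 8462 genes higher and 14 genes (0.165%) lower, with 1473 at an unadjusted p under 0.05, and 61 of the genes it called were also among those of DESeq2. The limma fit was added after edgeR had called no gene. With the number of detected genes as a covariate limma called 0, and with the suprabasal score as a covariate it called 0. The wound-only cells had more detected genes than the double-low cells in every mouse (7043 against 6561, 6129 against 5414, 6733 against 5898 and 7054.5 against 6607.5), and a higher suprabasal score as given above. Without WT1 limma called 0 genes, without KO1 3, without KO3 12 and without WT2 186. The names and values that follow are subject to all of these.

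Cornified envelope and late differentiation genes other than the 7 of the score made up the leading group. Of 20 such genes 13 lay higher in 4 of 4 mice and 0 lower, where 21.7% of all genes lay higher and 5.06% lower, and limma called 8: Spink5, Klk10, Dmkn, Ppl, Evpl, Dsc2, Jup and Ovol1. Dsc2 and Jup encode desmosomal proteins and stand in the junction list too, and Ovol1 encodes a transcription factor. Klk10 (chr7:43781035-43785410), a secreted kallikrein protease of the outer epidermis, had mean log2(CPM + 1) values of 8.5, 5.08, 7.13 and 10.63 in wound-only cells and 5.77, 3.11, 4.15 and 7.41 in double-low cells. Its mean difference was 2.72 ± 0.54 (SD, n = 4 mice), with a limma adjusted p of 0.00624. Dmkn, encoding the secreted dermokine, stood at 9.37, 8.45, 9.0 and 10.53 against 7.48, 7.67, 7.16 and 8.78 (limma adjusted p = 0.0127). Ppl and Evpl, the envelope plakins periplakin and envoplakin, differed by 2.68 ± 0.72 and 3.05 ± 1.65 (SD, n = 4 mice; limma adjusted p = 0.0228 and 0.0448). Spink5, a protease inhibitor, was high in wound-only cells of WT1, KO1 and KO3 (5.13, 6.59 and 8.08 against 1.08, 1.82 and 4.22) and nearly level in WT2 (1.32 against 0.93).

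Lipid synthesis genes also lay higher than in double-low cells. Among all genes 21.7% lay higher and 5.06% lower in 4 of 4 mice. Of 27 cholesterol and fatty acid genes 16 lay higher in 4 of 4 mice and 1 lower, with a median difference of 1.35 on the mean log2(CPM + 1) scale and 0.65 in edgeR. Elovl1, an elongase of very long fatty acids, was among the limma calls, with a mean difference of 1.71 ± 0.35 (SD, n = 4 mice; adjusted p = 0.0199). Of 31 antioxidant genes 14 lay higher and 2 lower, and limma called Pgd, Gsta4 and Gsto1. Among 28 annexin, S100 and cytoskeleton genes 14 lay higher and 1 lower, with 6 limma calls. Anxa2, a membrane-binding annexin, differed by 0.75, 0.57, 0.60 and 0.32 (limma adjusted p = 0.0302). Areg and Hbegf were also among the limma calls, at mean differences of 2.40 ± 1.22 and 1.50 ± 0.73 (SD, n = 4 mice; adjusted p = 0.0247 and 0.0269).

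Among the 14 lower genes were Sostdc1, Apoe, Matn2 (the matrix protein matrilin-2), Thbs1 (thrombospondin-1), Chst2 (a sulfotransferase) and Jag1, named after their values were seen. Sostdc1 stood at 3.11, 6.95, 4.79 and 0.71 in wound-only cells and 7.12, 8.51, 7.48 and 4.94 in double-low cells (mean log2(CPM + 1); limma adjusted p = 0.0198). Ifitm3, an interferon-induced membrane protein, fell in the same test (-1.54, -0.38, -1.37 and -1.68, limma adjusted p = 0.04). Of 8 interferon and MHC class I genes 7 lay lower in 4 of 4 mice, against 5.06% of all genes.

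Double-high cells lie past the same wound limit, so the comparison with them sets both sides of the suprabasal limit against each other. Adhesion genes of the basement membrane lay higher in the wound-only cells on the mean log2(CPM + 1) scale. In KO3 the summed level of the basal and hemidesmosome list was nearly equal between these classes. The wound score was not matched between these classes: its medians were 8.74, 7.67, 9.26 and 10.3 in double-high cells, above the 8.26, 6.29, 7.69 and 10.05 of wound-only cells in every mouse, and its part in the differences was not tested. edgeR called 0 of 15730 genes (0%), with 882 at an unadjusted p under 0.05, and DESeq2 called 843 (5.36%). limma called 26 genes higher (0.307%) and 14 lower (0.165%), with 1132 at an unadjusted p under 0.05 and 28 genes shared with DESeq2. With the suprabasal score as a covariate limma called 0, and with detected genes as a covariate 66. Without KO1 it called 0, without WT2 1, without WT1 9 and without KO3 29.

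Of 17 basal keratinocyte and hemidesmosome genes 11 lay higher in 4 of 4 mice and 1 lower, where 9.44% of all genes lay higher and 8.82% lower. The median difference was 1.72 on the mean log2(CPM + 1) scale and 1.45 in edgeR, and limma called 7: Itgb4, Col17a1, Lama3, Lamb3, Itga3, Itgb1 and Cav1. Cav1 encodes a protein of caveolae, not of hemidesmosomes. Against double-low cells 2 of these 17 genes lay higher and 3 lower, with a median of -0.42, where 21.7% of all genes lay higher and 5.06% lower. Summed over the 19 listed genes, the level was 11250, 11810, 8263 and 4419 CPM in wound-only cells. Double-high cells held 5915, 6798, 4344 and 4206 CPM and double-low cells 9742, 11840, 6638 and 7542 CPM. In KO3 the wound-only cells thus lay near double-high cells on this sum. Col17a1 (chr19:47646344-47692094), the collagen XVII of hemidesmosomes, stood at 10.08, 11.49, 9.92 and 6.79 in wound-only cells, 6.8, 6.3, 6.06 and 3.72 in double-high cells and 10.96, 11.81, 10.36 and 9.64 in double-low cells. Wound-only cells thus lay near double-low cells in WT1, WT2 and KO1 and between the classes in KO3. The difference from double-high cells was 3.85 ± 0.95 (SD, n = 4 mice; limma adjusted p = 0.00228), and from double-low cells -1.12 ± 1.18 (adjusted p = 0.152). Itgb4, the beta-4 integrin of hemidesmosomes, stood at 9.65, 10.43, 8.8 and 6.37 in wound-only cells against 8.25, 6.97, 5.41 and 3.62 in double-high cells. The laminin-332 chains Lama3 and Lamb3 differed by 2.91 ± 0.78 and 3.53 ± 1.75 and the beta-1 integrin Itgb1 by 3.21 ± 1.08 (SD, n = 4 mice; limma adjusted p = 0.0318, 0.0318 and 0.0283).

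Both genes of the sort are given as values, Itga6 of the same list and Cd34 of the hair follicle list. Itga6 differed by 1.52, 2.44, 1.86 and 1.06 (limma adjusted p = 0.0711) and Cd34 by 1.55, 2.16, 2.74 and 2.57 (adjusted p = 0.138). Outside the basal list, Tgfbi, a secreted matrix protein that binds integrins, stood at 8.75, 10.16, 8.3 and 6.86 in wound-only cells and 6.02, 6.58, 4.63 and 2.31 in double-high cells on the mean log2(CPM + 1) scale (limma adjusted p = 0.0229). Anxa3, an annexin, differed by 2.47, 3.09, 1.45 and 3.07 (adjusted p = 0.0228). Areg and Hbegf, by contrast, passed no test here: Areg stood at 8.27, 3.86, 7.51 and 8.01 in wound-only cells and 8.3, 4.63, 7.8 and 8.41 in double-high cells.

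Of the 14 genes that limma called lower than in double-high cells, Gjb2, Perp, Fabp5, Klk10 and Dmkn are described, chosen after their values were seen. Gjb2, the gap junction protein connexin 26, fell by 3.75, 3.52, 2.61 and 1.28 (limma adjusted p = 0.0104), and Perp, a desmosomal protein, differed by -0.59, -1.42, -0.84 and -0.88 (adjusted p = 0.0193). Fabp5, the epidermal fatty acid binding protein, stood at 2140, 591, 2620 and 6320 CPM against 5230, 6570, 8930 and 9110 CPM (adjusted p = 0.0318). Of 13 junction genes 0 lay higher and 6 lower in 4 of 4 mice, with 2 limma calls. Among all genes 9.44% lay higher and 8.82% lower. Of the cornified envelope list 0 of 20 genes lay higher and 13 lower in 4 of 4 mice, and limma called Klk10 and Dmkn. Klk10 and Dmkn were thus called in both comparisons, higher than in double-low cells and lower than in double-high cells, and Gjb2 likewise. With the suprabasal score as a covariate, the differences of Fabp5 and Dmkn from double-high cells turned to 1.19 and 0.12. Cholesterol and fatty acid genes lay lower too, 9 of 27 in 4 of 4 mice with 1 higher.

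**Figure D4:**
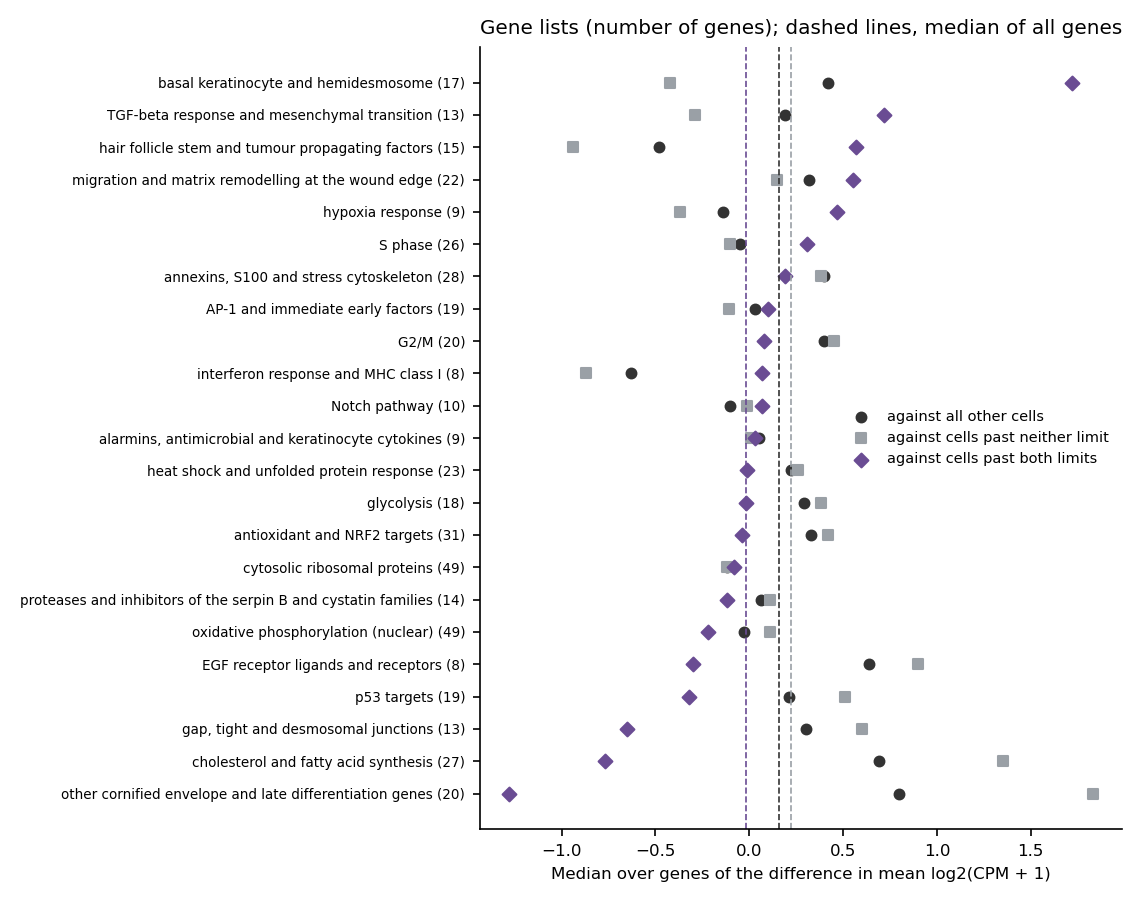
Median difference in mean log2(CPM + 1) of each gene list between wound-only cells and all other cells, double-low cells and double-high cells, with the median of all genes as a line. The cornified envelope list lies at 1.83 against double-low and -1.28 against double-high cells, and the basal and hemidesmosome list at -0.42 and 1.72.

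The basal keratins were abundant in wound-only cells, although Krt5 was lower than in other cells in KO3. Krt14 reached 30600, 32100, 25900 and 31400 CPM in wound-only cells against 21200, 29600, 19600 and 25200 CPM in other cells, and it had a count in all 62; 14.4% of its 50-base stretches occur in another gene, 11.4% in Krt16. Krt5 differed from other cells by 0.08, 0.45, 0.62 and -0.45 on the mean log2(CPM + 1) scale. Of the markers of other cell types, some were at 0 and others were not. At 0 in every cell were Cd3e, Cd3d, Adgre1, Cd207 and Trdc of the immune list, Col1a2, Dcn, Lum and Pdgfrb of the fibroblast list, Kdr, Emcn and Cldn5 of the endothelial list, and Dct, Tyrp1, Tyr and Sox10 of the melanocyte list. The summed level of the 16 immune markers was 10.45 to 20.05 CPM in wound-only cells by mouse, against 14.66 to 39.15 CPM in other cells. The 11 fibroblast markers summed to 438.7, 185, 345.9 and 211.7 CPM against 363.1, 170.4, 306.2 and 297.3 CPM. At least 2 fibroblast markers had a count in 14 of 16, 4 of 19, 9 of 15 and 7 of 12 wound-only cells and in 27 of 53, 10 of 69, 28 of 58 and 14 of 42 other cells. In wound-only cells nearly all of that sum came from Fbln1 and Fbln2, which encode the matrix proteins fibulin-1 and fibulin-2; Col1a1, Col3a1, Col6a1 and Thy1 were at 0 there. Fbln2 stood at a mean log2(CPM + 1) of 5.67, 2.12, 4.79 and 3.17 against 3.16, 1.44, 3.35 and 2.45, higher in 4 of 4 mice. Its summed level in KO3 was lower, at 43.5 against 79.3 CPM. The 13 sebocyte and hair shaft markers summed to 31.71, 21.18, 46.34 and 67.64 CPM against 28.62, 42.17, 77.64 and 51.7 CPM, with Krt35 and Krt82 at 0. The part of these markers in the results was not tested. The 9 endothelial markers summed to 4.105 to 16.87 CPM and the 7 melanocyte markers to 0 to 3.548 CPM in wound-only cells.

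Against all other cells, the remaining results of the lists are given by the same counts. Among all genes 15.8% lay higher and 4.02% lower in 4 of 4 mice. The medians over all genes were 0.16 on the mean log2(CPM + 1) scale and -0.18 in edgeR. Counts of higher genes near that share, as for AP-1 factors, p53 targets and basal genes, are no result about the list. Of 20 cornified envelope genes 4 lay higher and 2 lower (median 0.80 on the mean log2(CPM + 1) scale, -0.21 in edgeR over 40 genes of the list). In the pairs of medians that follow, edgeR's likewise takes in any list genes it fitted outside the counted ones. Of 28 annexin, S100 and cytoskeleton genes 12 lay higher and 0 lower (0.40 and 0.30), of 31 antioxidant genes 9 and 3 (0.33 and 0.17), and of 27 lipid synthesis genes 7 and 0 (0.69 and 0.15). Of 17 basal genes 3 lay higher and 0 lower (0.42 and 0.06), and of 13 junction genes 3 and 0 (0.30 and 0.11). Of 22 genes of migration and matrix remodelling 6 lay higher and 0 lower in 4 of 4 mice (median 0.32 on the mean log2(CPM + 1) scale, 0.00 in edgeR), of 18 glycolysis genes 6 and 0 (0.29 and 0.09), and of 19 AP-1 and immediate early factors 3 and 0 (0.03 and -0.17). Of 23 heat shock and unfolded protein response genes 5 lay higher and 2 lower (0.22 and 0.00), of 19 p53 targets 3 and 2 (0.21 and -0.02), and of 13 TGF-beta response genes 2 and 0 (0.19 and -0.39). Of 49 nuclear genes of oxidative phosphorylation 5 lay higher and 0 lower (-0.03 on both scales), and of 49 cytosolic ribosomal protein genes 0 and 2 (-0.12 and -0.05). Of 15 hair follicle stem and tumour propagating factors 1 lay higher and 2 lower (-0.48 and -0.79), and of 10 Notch pathway genes 1 and 1 (-0.10 and -0.55). Alarmins, antimicrobial genes and cytokines of keratinocytes showed 0 of 9 genes higher and 0 lower. Of 9 hypoxia genes 1 lay higher and 2 lower (-0.14 and -0.23), and of 14 protease and inhibitor genes 2 and 0 (0.06 and -0.20).

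The Sirt6 transcript does not separate the genotypes. Sirt6 encodes a NAD-dependent histone deacylase, and its level in wound-only cells was 15.8, 11.1, 16 and 9.84 CPM, the last pair from the mice labelled Sirt6-/-. A count per gene does not show whether part of the gene is deleted, so the label is not checked by it. The other cells held 16.9, 29, 29.9 and 15.7 CPM. Between genotypes edgeR called 0 of 12794 genes among wound-only cells (0%), with 587 at an unadjusted p under 0.05, limma 0 and DESeq2 100 (0.782%). For a genotype difference in the step from other to wound-only cells edgeR called 0 of 16214 (0%), with 423 unadjusted, limma 0 and DESeq2 69 (0.426%).

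Of the 4 genes in each direction with the smallest edgeR p between genotypes, the 7 outside the scores are given as values; the other is Calm4, which helped to choose the cells. Gm94 stood at 30.9, 7.86, 706 and 1530 CPM. Iws1, a transcription elongation factor, stood at 8.5, 5.32, 48.9 and 47.5 CPM, and the pseudogene Tdg-ps, whose reads may belong to its parent gene, at 5.54, 2.37, 67.7 and 54.5 CPM. In the other direction Relb, an NF-kappa-B subunit, stood at 39.3, 35.3, 4.55 and 3.18 CPM and Epb41l2, a membrane skeleton protein, at 72.3, 50.3, 7.06 and 7.33 CPM. Crispld2, a secreted protein, stood at 46.5, 82.3, 0.117 and 0 CPM, and the zinc finger gene Zfp984 at 27.8, 15.1, 0 and 0 CPM. The edgeR adjusted p of each of these 7 genes was 0.898. The 2 mice of a genotype do not always resemble each other: among wound-only cells, Lamb3 had a mean log2(CPM + 1) of 8.04, 8.95 and 6.43 in WT1, WT2 and KO1 and of 3.25 in KO3.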

How the data were processed

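Single-cell Smart-seq2 libraries of 284 sorted cells from 4 mice were analysed. The authors deposited expected counts per gene; STAR, RSEM and the mm10 build come from the submitters' processing notes, without tool versions. Among deposited values above 0, 21.5% were not whole. The table held 54247 gene IDs, of which 53857 matched a symbol. Libraries carry no molecular identifiers, so reads are not independent molecules.

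Scores used log2(CPM + 1). Counts were summed by class and mouse and rounded. A class with fewer than 5 cells in a mouse was left out of the edgeR fits with 4 classes (KO3, suprabasal limit alone, 4 cells), leaving 15 sums. edgeR 4.0.16 (TMM, filterByExpr, quasi-likelihood) was the main test, with the mouse as a block, since both classes come from the same mouse. The 13 score genes were left out of testing in the comparisons of classes and in the interaction; the genotype fit kept them, so its counts of genes tested include them. DESeq2 1.42.0 was an alternative, given as counts of calls. limma 3.58.1 (R 4.3.3) on class means was added after edgeR had called no gene; filters of 5% and 20% of each mouse's cells were looked at and the second was kept. The fits were tested on simulated data.

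Named genes were to be the largest changes among called genes in each direction and, for each fixed list, up to 4 called genes or the 2 with the smallest p; not every gene so picked is printed, and other genes named are called or listed genes chosen after their values were seen. The cells, lists and alternatives were chosen with earlier results of these data known. Alternatives covered tools, filters, wound limits, score scale, thinning, plates, cell weights and leaving out mice. Cells were not checked for doublets. Each came from a sorted well, which does not exclude a doublet.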

Additional observations from a re-analysis of the deposited data

Results flagged for a closer look

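Among sets of 4 mouse values checked for a single value far from the others, 7 stood out (4.76%). The reference rate of this rule is 1 in 20 for independent sets. These sets share the same mice, and some share a gene, so that rate cannot show whether the flags are due to chance. All 7 concern WT2. Its difference between wound-only and double-low cells, in mean log2(CPM + 1), was 4.3 for Krt17, -0.81 for Ly6d and 0.79 for Dmkn. The Ly6d difference in WT2 was -3.02 from all other cells and -7.9 from double-high cells, and the Krt1 difference from double-high cells was -9.63. Dusp6, a phosphatase of the ERK pathway, differed by 0.66 from other cells in WT2. Krt17, Ly6d and Krt1 belong to the scores that chose the cells. WT2 also has the lowest wound limit and 1 of its 19 wound-only cells on another plate; the part of these in the values was not tested.

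Gja1, the gap junction protein connexin 43, differed from other cells by -0.26 and -0.28 in WT1 and WT2 and by 0.09 and 0.04 in KO1 and KO3 on the mean log2(CPM + 1) scale, a wild-type minus labelled Sirt6-/- difference of -0.34. The mice of the genotypes lie on opposite sides of 0, as they do for 9.17% of 8462 genes. The interaction test of Gja1, labelled Sirt6-/- minus wild type, gave a log2 difference of 0.34 (SE 0.26) with limma and an adjusted p of 0.999, and 0.20 (SE 0.20) with edgeR and an adjusted p of 1. Over all genes edgeR called 0 genotype differences of this kind, with 423 at an unadjusted p under 0.05, limma 0 and DESeq2 69.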

How the results depend on the processing

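The edgeR counts of 0 held under every planned edgeR alternative in all 5 comparisons, without the replicate block (0 calls in each of the 3 comparisons of classes; the mouse pairs the classes by design) and without each mouse in turn (0 to 0), apart from the comparison with double-high cells, where taking the top 50% by wound score gave 8. DESeq2 with its size factors gave 319, 605, 843, 100 and 69 genes for all other cells, double-low cells, double-high cells, genotype and interaction, and 26 for the fixed lists against all other cells, where edgeR called 0. The alternatives of limma were added after seeing the data. limma called 0 genes against all other cells, and 0 to 8 without each mouse in turn, the 8 without WT2. Against double-low cells, where it had called 1.29% of genes higher and 14 lower, with genes in at least 5% of cells it called 48, with detected genes as a covariate 0, with the suprabasal score as a covariate 0, and 0 to 186 without each mouse. Against double-high cells it called 40; with detected genes as a covariate 66, with the suprabasal score as a covariate 0, and 0 to 29 without each mouse (0 without KO1, 1 without WT2, 9 without WT1). The mean difference in detected genes was 450.1 on the main plates.

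Of 1312 differences of single genes under the alternatives, 961 kept direction and side of the threshold, 39 passed it newly, 303 no longer passed it and 9 changed sign. With the suprabasal score as a covariate the difference from double-high cells was 0.12 for Dmkn, 1.19 for Fabp5, -0.05 for Odc1, -0.20 for Hbegf and 0.09 for Areg; Areg was also 0.05 in edgeR and 0.06 in DESeq2. Rrm2, a ribonucleotide reductase gene, was at -0.36 against all other cells, at 0.32 in limma and at 0.08 with scores from z-scores. The cause was not tested.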
